A study of Mus musculus with 18 samples.

Results

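Cym, Cckar, Cpn1, Prom2, Tinag and Cps1 were 6 genes whose RNA was much lower in embryonic mouse lungs after deletion of Rptor, Tfam or Cox10 from the epithelium, except that Cps1 overlapped between deficient and control lungs after deletion of Tfam. They were 6 of 23420 genes listed, and they were selected on the very falls given here, read in the lungs of all 3 lines both per lung and relative to the mean of the epithelial genes Epcam, Cdh1 and Nkx2-1. The differences between deficient and control lungs are therefore a description, and no test of them is given. RNA-seq had been run on whole lungs at 14.5 dpc (days post coitus), with 3 deficient and 3 control samples in each line, named below as the Rptor, Tfam and Cox10 cross. Deficient lungs were Rptorf/f; ShhCre/+, Tfamf/f; ShhCre/+ or Cox10f/f; ShhCre/+, and the control lungs of each line were Rptorf/+; ShhCre/+, Tfamf/+; ShhCre/+ or Cox10f/+; ShhCre/+. Controls thus carried ShhCre/+ and a single floxed allele, and every animal had a Cre cassette inserted in a copy of Shh. Cre from the Shh locus acts in the epithelium, so the other cells of these whole lungs kept the floxed genes. RPTOR is a subunit of mTOR complex 1, TFAM maintains mitochondrial DNA, and COX10 is needed to build cytochrome c oxidase.

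The 6 genes do not make up a known pathway, and most are better known from organs other than the lung. Cym encodes chymosin, a milk-clotting aspartic protease of the stomach. Cckar encodes a receptor for the gut peptide cholecystokinin that acts in the gall bladder and pancreas. Cpn1 encodes the catalytic subunit of carboxypeptidase N, a plasma enzyme made by the liver that trims kinins and anaphylatoxins. Prom2 encodes prominin 2, a membrane protein of epithelial surface protrusions. Tinag encodes tubulointerstitial nephritis antigen, a glycoprotein of kidney tubule basement membranes. Cps1 encodes carbamoyl-phosphate synthetase 1, the mitochondrial enzyme at the entry of the urea cycle. The epithelium of a lung at this stage is a branching tree of progenitors surrounded by mesenchyme and vessels, so that a gene of the epithelium makes up only a share of the RNA of the whole organ.

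The 6 genes lie on 6 chromosomes. In GRCm38 (mm10) with GENCODE gene models, Cym spans chr3:107211293-107221732, Cckar chr5:53697776-53707705, Cpn1 chr19:43956307-43986556, Prom2 chr2:127526473-127541467 and Tinag chr9:76951693-77045794, all on the minus strand, and Cps1 spans chr1:67123026-67231259 on the plus strand. Because these genes moved together in the 3 lines, the sequence before their starts was read for the 4 genes with a RefSeq promoter entry (GRCm38.p6), and Cckar and Cps1 had no entry. The sequences run 5′ to 3′ on the strand of the gene up to the RefSeq start and leave out bases that GENCODE counts as exon. Capitals mark every match to any of 13 short motifs searched on both strands.
Cym, chr3:107221733-107221982, minus strand: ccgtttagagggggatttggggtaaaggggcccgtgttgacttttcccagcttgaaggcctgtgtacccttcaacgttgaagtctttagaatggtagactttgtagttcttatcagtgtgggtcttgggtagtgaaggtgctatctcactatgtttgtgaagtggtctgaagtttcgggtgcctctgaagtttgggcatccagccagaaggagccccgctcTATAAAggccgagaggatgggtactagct
Cpn1, chr19:43986557-43986770, minus strand: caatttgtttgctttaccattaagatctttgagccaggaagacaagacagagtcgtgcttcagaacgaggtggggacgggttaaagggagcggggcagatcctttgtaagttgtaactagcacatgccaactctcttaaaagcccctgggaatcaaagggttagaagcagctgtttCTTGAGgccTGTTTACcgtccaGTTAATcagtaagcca
Prom2, chr2:127541468-127541667, minus strand: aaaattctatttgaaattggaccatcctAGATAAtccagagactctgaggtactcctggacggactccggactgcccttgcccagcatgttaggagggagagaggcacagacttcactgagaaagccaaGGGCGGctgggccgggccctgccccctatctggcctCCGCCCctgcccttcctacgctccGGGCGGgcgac
Tinag, chr9:77045795-77046031, minus strand: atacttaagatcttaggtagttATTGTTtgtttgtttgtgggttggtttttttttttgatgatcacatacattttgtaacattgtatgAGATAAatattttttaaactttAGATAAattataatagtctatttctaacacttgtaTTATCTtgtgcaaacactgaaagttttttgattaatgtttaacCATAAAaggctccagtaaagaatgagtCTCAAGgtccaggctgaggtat

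The 4 sequences differed in base composition and in the motifs they held. GC content over the 250 bases before the start was 50% for Cym, 47.6% for Cpn1, 60.8% for Prom2 and 28.8% for Tinag, against a median of 52.4% over 32841 promoters. Cym held a TATA box (TATAAA) 29 to 24 bases before its start, a motif held by 12.4% of all promoters. Cpn1 held the letters bound by FOXA (TGTTTAC, 3.17% of all promoters), HNF1 (GTTAAT, 6.43%) and NKX2-1 (CTCAAG, 13.3%) between 74 and 47 bases before its start. Prom2 held 3 SP-KLF motifs (GGGCGG, 32.7%) and a GATA motif (AGATAA, 9.99%). Tinag held 3 GATA motifs and a match each for NKX2-1, SOX (AACAAT, 9.43%) and CDX (TTTATG, 10.8%). No motif was found in more than 2 of the 4 genes, and GATA and NKX2-1 were the motifs found in 2. HNF4 (CAAAGTCC, 1.20%), ATF4-CHOP (TGATGCAA, 0.792%), AP-1 (TGANTCA, 6.75%), GRHL (ACCNGTT, 6.97%) and TEAD (GGAATG, 12.6%) had no match in these windows. These matches are letters in a window and were not linked to binding in these lungs.

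Each sample summed to between 2.77e+07 and 2.96e+07 normalised reads, meaning reads per gene after division by the size factor of that library, with 17671 to 17910 genes above 0. Across genes, replicates correlated at 0.991 to 0.995. The targeted genes overlapped between deficient and control samples: Rptor stood at 2149 ± 254 against 2240 ± 52.0 normalised reads (SD, n = 3 each) in its own line, Tfam at 1013 ± 85.1 against 1102 ± 72.5 and Cox10 at 794 ± 44.7 against 797 ± 38.0. Since only epithelial cells lose the gene and controls have a floxed allele too, these levels are no check of the labels. The paper describes the controls as littermates, but nothing in the labels ties a sample to a litter. The p-values measure the spread between these samples. All 6 selected genes reached the minimum of 10 normalised reads in at least 3 samples that was set for a test in every line, but Tinag in the Rptor cross did so through the control lungs only.

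Cym had the largest mean fall of the 6 genes over the 3 lines. In the Rptor cross it stood at 2176, 1127 and 1477 normalised reads in control lungs and at 46.9, 106 and 158 in deficient lungs. In the Tfam cross control lungs had 1601, 1287 and 1421, and deficient lungs had 67.5, 84.4 and 117. The Cox10 cross had 216, 319 and 255 in control lungs and 24.0, 20.1 and 20.8 in deficient lungs. Groups were well apart in each line, and deficient lungs kept 6.51%, 6.25% and 8.21% of the control mean (log2 differences of -4.04, SE 0.40, -4.02, SE 0.17, and -3.53, SE 0.19, for Rptor, Tfam and Cox10 in turn, n = 3 each). The spread was widest in the Rptor cross, where the log2 difference was -3.56 without deficient replicate 1 and -4.42 without deficient replicate 3.

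Cckar, the receptor gene, was expressed in all control lungs at over 1000 normalised reads. Rptor-cross controls had 1516, 1352 and 1415 normalised reads, and Rptor-deficient lungs had 60.2, 58.4 and 114. Tfam-cross controls had 2185, 2030 and 1860 and Tfam-deficient lungs had 708, 635 and 648. Cox10-cross controls had 1410, 1509 and 1392 and Cox10-deficient lungs had 453, 428 and 332. No deficient lung reached any control lung of its line. The lungs kept 5.42% of the control mean in the Rptor cross, 32.8% in the Tfam cross and 28.1% in the Cox10 cross (log2 differences of -4.26, SE 0.23, -1.61, SE 0.08, and -1.84, SE 0.12).

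Tinag had the deepest fall of all, in the Rptor cross. Its control lungs there had 495, 475 and 360 normalised reads and its deficient lungs 5.10, 9.90 and 2.96, which is 1.35% of the control mean (log2 difference -6.10, SE 0.35). With so few reads the size of this fall depends on the pseudocount, and it was -4.83 with a pseudocount of 10. In the Tfam cross Tinag went from 438, 375 and 436 to 72.5, 64.5 and 52.8, or 15.2% of the control mean (-2.71, SE 0.14). In the Cox10 cross it went from 147, 103 and 155 to 32.9, 21.1 and 68.2, or 30.2% (-1.84, SE 0.39). Deficient replicate 3 was the highest of these last 3 lungs, and without it the log2 difference in the Cox10 cross was -2.29. Without deficient replicate 2, the lowest of them, the log2 difference was -1.47.

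Cpn1 and Prom2 had lower control levels and smaller falls in the Rptor cross than Cym, Cckar and Tinag. Cpn1 went from 170, 141 and 135 to 29.6, 27.7 and 49.4 normalised reads in the Rptor cross, from 172, 195 and 169 to 47.6, 31.8 and 30.3 in the Tfam cross and from 144, 151 and 162 to 42.9, 42.2 and 50.4 in the Cox10 cross. Deficient lungs thus held 23.9%, 20.5% and 29.7% of the Cpn1 level of their controls (log2 differences of -2.07, -2.28 and -1.73). Prom2 went from 189, 122 and 117 to 28.6, 29.7 and 38.5 in the Rptor cross, from 152, 111 and 118 to 39.7, 44.7 and 55.7 in the Tfam cross and from 83.4, 87.8 and 76.0 to 24.0, 34.2 and 25.7 in the Cox10 cross. Its deficient lungs held 22.6%, 36.7% and 33.9% of the control mean (log2 differences of -2.09, -1.43 and -1.54). For both genes every deficient value lay below every control value of the same line.

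Cps1 was the gene of the 6 with overlapping groups, in the Tfam cross. It went from 219, 260 and 277 to 51.0, 63.4 and 30.6 normalised reads in the Rptor cross and from 190, 184 and 184 to 47.9, 75.4 and 29.7 in the Cox10 cross, which left 19.2% and 27.5% of the control mean (log2 differences of -2.41, SE 0.25, and -1.94, SE 0.30). In the Tfam cross control lungs had 96.5, 48.5 and 89.0 and deficient lungs had 27.8, 52.6 and 36.2. Control replicate 2 lay below deficient replicate 2, so the groups overlapped, and deficient lungs kept 49.8% of the control mean (-0.97, SE 0.29). Without control replicate 2 the log2 difference in this line was -1.28, and without deficient replicate 1 it was -0.76.

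**Figure D1:**
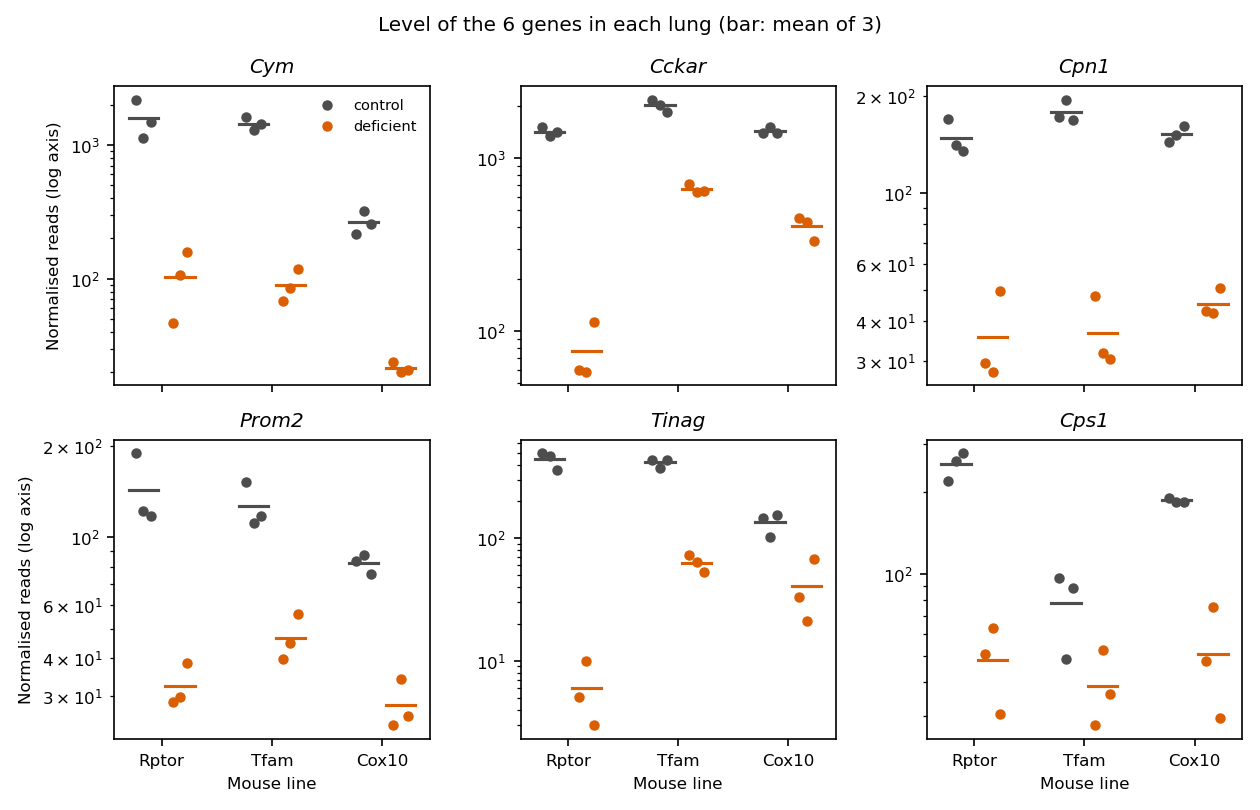
Normalised reads (log axis) of the 6 genes in each of the 18 samples, by mouse line, with control lungs in grey, deficient lungs in orange and a bar at the mean of 3. Deficient points lie below control points in every panel and line, except for Cps1 in the Tfam cross, where a control lung at 48.5 lies below a deficient lung at 52.6.

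Counting genes whose deficient and control values were fully apart gave 6 of 6 in the Rptor cross, 5 of 6 in the Tfam cross and 6 of 6 in the Cox10 cross. All 3 deficient values lay below all 3 control values for 26% of all tested genes in the Rptor cross, 11.8% in the Tfam cross and 10.8% in the Cox10 cross, and nothing is read from this contrast since it chose the genes. The median log2 difference of the 6 genes was -3.23, -1.94 and -1.84 for Rptor, Tfam and Cox10 in turn, where the median of all tested genes was 0.0083, 0.00098 and 0.0014. The genes were reduced and not absent. Deficient lungs kept from 1.35% to 23.9% of the control mean in the Rptor cross, from 6.25% to 49.8% in the Tfam cross and from 8.21% to 33.9% in the Cox10 cross. Apart from Tinag in Rptor-deficient lungs, no lung held fewer than 20.1 normalised reads of any of the 6 genes.

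The choice of these 6 genes drew no sharp border. Among 12509 genes tested in all 3 lines with a control mean of at least 50 in each, ranked by the mean log2 difference over the lines, Cym was at rank 1 (-3.86), Tinag at 2 (-3.55), Cckar at 4 (-2.57), Cpn1 at 5 (-2.03), Cps1 at 12 (-1.78) and Prom2 at 15 (-1.69). The genes with the largest mean falls that were not chosen were Crh, corticotropin-releasing hormone, at rank 3 (-2.79), Gpx2, an epithelial glutathione peroxidase, at 6 (-2.01), Ret, a receptor tyrosine kinase, at 7 (-1.84), Aldh1a7, an aldehyde dehydrogenase, at 8 (-1.83), and Cldn10, a tight junction claudin, at 9 (-1.82). Gpx2, Aldh1a7 and Cldn10 fell far more in the Rptor cross than elsewhere, with log2 differences of -3.97, -3.34 and -3.58 there against -1.06, -1.18 and -0.99 in the Tfam cross. Tinag and Cckar among the 6 chosen genes also had their largest differences in the Rptor cross (-6.10 and -4.26), and Ret, at -2.26, -1.59 and -1.66 over the 3 crosses, was about as even as Prom2.

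Levels can be compared between genes only per length of transcript, here as normalised reads per kilobase of exon in control lungs. Cym was the highest of the 6 in the Rptor and Tfam lines, at 1289 ± 432 and 1162 ± 127 per kilobase (SD, n = 3), followed by Cckar at 388 ± 22.5 and 550 ± 44.3 and Tinag at 255 ± 41.8 and 240 ± 20.7. In the Cox10 cross Cckar came ahead of Cym, at 390 ± 17.1 against 213 ± 41.8, with Tinag at 77.7 ± 16.1. Cpn1 stood at 40.3 ± 4.98, 48.4 ± 3.88 and 41.3 ± 2.45 per kilobase for Rptor, Tfam and Cox10 in turn. Cps1 stood at 45.3 ± 5.29, 14.0 ± 4.65 and 33.4 ± 0.608, and Prom2 at 27.6 ± 7.79, 24.5 ± 4.26 and 15.9 ± 1.15. In the Rptor cross Cps1 and Cpn1 overlapped and are not ordered.

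Control lungs were not alike across lines. The mean of Cym in control lungs was 1593 normalised reads in the Rptor cross, 1437 in the Tfam cross and 263 in the Cox10 cross, a ratio of 6.05 between the highest and the lowest. The corresponding ratio was 3.28 for Tinag (443, 416 and 135), 3.23 for Cps1 (252, 78.0 and 186), 1.74 for Prom2 (143, 127 and 82.4), 1.42 for Cckar (1428, 2025 and 1437) and 1.20 for Cpn1 (149, 179 and 152). For Cym all 3 controls of the Cox10 cross lay below all 6 controls of the other lines, and for Cps1 all 3 controls of the Tfam cross lay below the 6 others. Values of each cross were normalised on their own, so these levels stand side by side with no test. Cym was at 21.6 ± 2.06 normalised reads (SD, n = 3) in Cox10-deficient lungs, lower than in Rptor-deficient lungs at 104 ± 55.6, although the fold was smaller.

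To ask how far the falls exceeded the loss of epithelial RNA, the mean log2 level of Epcam, an epithelial adhesion molecule, Cdh1, encoding E-cadherin, and Nkx2-1, a transcription factor of lung epithelium, was subtracted in each sample. This reference was lower in deficient lungs by a log2 difference of -1.17 in the Rptor cross, -0.27 in the Tfam cross and -0.40 in the Cox10 cross. In these bulk samples fewer cells of a type and less RNA per cell cannot be told apart. Relative to it the median of the 6 genes was -2.05 in the Rptor cross, -1.67 in the Tfam cross and -1.44 in the Cox10 cross, with ranges of -4.93 (Tinag) to -0.90 (Cpn1), -3.74 (Cym) to -0.70 (Cps1) and -3.14 (Cym) to -1.14 (Prom2). All deficient values lay below all control values on this relative scale for 6, 5 and 6 of the 6 genes, and for 0.843%, 1.83% and 0.736% of all tested genes, from which nothing is read since this contrast also chose the genes. The Rptor cross depended most on the choice of reference. The log2 difference of Cdh1 alone was -1.89 there, and against it the median was -1.34, Cpn1 stood at -0.19 and Prom2 at -0.20, and 3 of 6 genes did not overlap (0.268% of all tested genes).

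**Figure D2:**
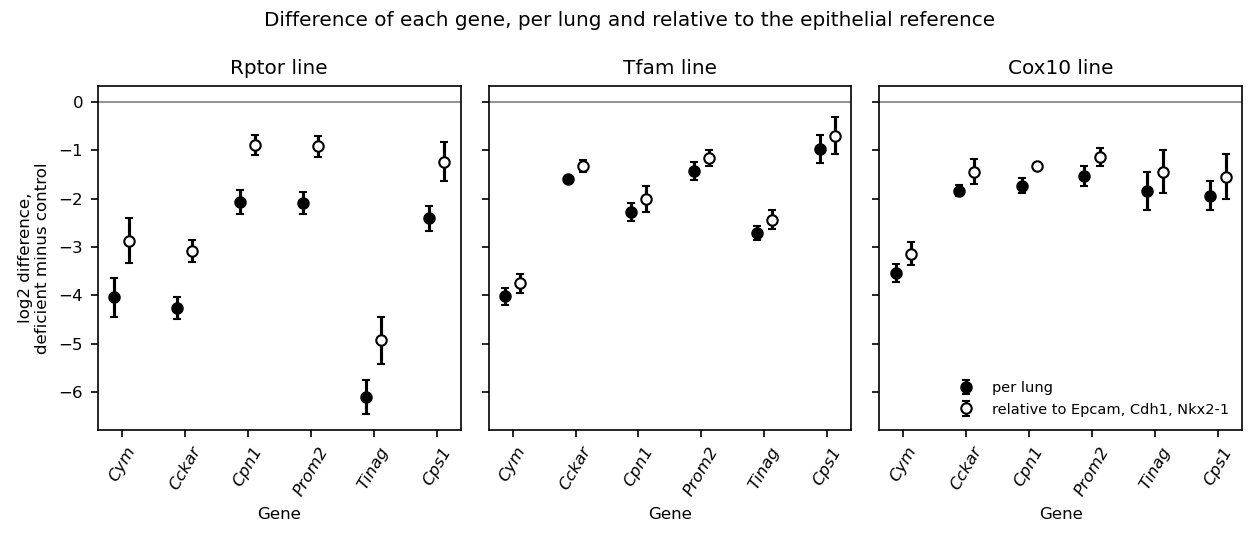
Log2 difference between deficient and control lungs for each of the 6 genes in each line, per lung (filled, bars are the limma standard error) and after subtracting the mean log2 of Epcam, Cdh1 and Nkx2-1 (open, bars are the standard error from the SD of both groups). All points lie below 0, and the gap between filled and open points is widest in the Rptor cross, where the reference itself differed by -1.17.

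Other marker lists moved in the Rptor cross as well. Of 20 further epithelial genes 19 were lower in Rptor-deficient lungs, 10 in Tfam-deficient lungs and 5 in Cox10-deficient lungs (limma, Benjamini-Hochberg adjusted p below 0.05), where 18.2%, 2.63% and 0.335% of all tested genes were lower. Foxa1, a forkhead factor of endoderm, was lower in all 3 lines, by log2 fold changes of -1.79, -0.65 and -0.66 (limma adjusted p = 0.000151, 0.000235 and 0.0184). Calls over all genes in the Cox10 cross were few and fell from 71 to 3, 5 and 3 without control replicate 1, 2 and 3. In Rptor-deficient lungs 5 of 8 mesenchymal and 6 of 7 endothelial, blood and mesothelial genes were higher, where 16.6% of all tested genes were higher. The summed level of the mesenchymal list was 155497 to 181018 normalised reads in Rptor-cross controls and 298093 to 324878 in Rptor-deficient lungs, and ranged from 174009 to 218857 and from 181726 to 224745 in the Tfam cross and from 147365 to 167184 and from 154361 to 215679 in the Cox10 cross. With Tfam 1 of 8 mesenchymal genes was lower (all genes 2.63%), and with Cox10 none of 8 passed in limma, with 2 at an unadjusted p below 0.05 (all genes 1945 of 14937). Of 9 tested proximal airway genes 4 were lower and 1 higher in the Rptor cross and 3 lower in the Tfam cross. Sox2, the transcription factor of proximal airway epithelium, fell from 419 to 49.5 and from 575 to 403 (log2 fold changes of -3.09 and -0.51, limma adjusted p = 0.000164 and 0.0189). Its groups overlapped in the Cox10 cross, at 560, 386 and 491 in controls and 503, 292 and 207 in deficient lungs (-0.60, limma adjusted p = 0.436). Of 9 distal tip genes 3 were higher and 4 lower in the Rptor cross and 3 higher and 1 lower in the Tfam cross. The 3 higher in both were Bmp4, Etv4 and Id2, with log2 fold changes of 0.63, 0.35 and 0.35 for Rptor and 0.61, 0.71 and 0.56 for Tfam, and the gene lower in both was Etv5 (-1.07 and -0.55). Of all tested genes 16.6% were higher and 18.2% lower in the Rptor cross, and 2.03% and 2.63% in the Tfam cross. In the Cox10 cross none of 7 proximal and none of 9 distal genes passed in limma, with 2 and 5 at an unadjusted p below 0.05 (all genes 1945 of 14937). The part of these shifts in the falls of the 6 genes was not tested.

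Markers of the organs for which the 6 genes are better known were also read. Of 12 stomach and intestine markers 7 stayed below 10 normalised reads in all 6 samples of the Rptor cross, and the list summed to 96.5 to 118 normalised reads in its control lungs and 37.6 to 59.4 in its deficient lungs. The sums were 140 to 172 and 100 to 139 in the Tfam cross, and 72.6 to 109 and 80.4 to 122 in the Cox10 cross, where they overlapped. Gkn3, a gastrokine of the stomach, stood at means of 43.9 and 4.64 normalised reads in control and deficient lungs of the Rptor cross, and Muc5ac, a gel-forming mucin, at 16.3 and 4.65. Gif, gastric intrinsic factor, stood at 25.6 and 4.59 in the Tfam cross. These 3 genes stayed below 10 in all deficient lungs of that cross and reached the minimum for a test through the controls alone, so that no test of them is given. In the Cox10 cross none of 3 tested stomach and intestine markers passed in limma, and 1 stood at an unadjusted p below 0.05 (all genes 1945 of 14937). Gkn3 stood at 34.3 and 27.3 in the Tfam- and Cox10-cross controls and at 14.9 and 8.33 in deficient lungs, and neither difference passed the threshold in limma. The 8 liver markers summed to 119 to 190 normalised reads in Rptor-cross controls and 184 to 718 in Rptor-deficient lungs. There 1 of 3 tested liver genes was higher (all genes 16.6%), with a median log2 fold change of 0.60. The liver sum in the Tfam cross was 203 to 1584 in controls and 314 to 777 in deficient lungs, and 6 of 7 tested liver genes had a log2 fold change below 0 (median -1.05, none past the threshold in limma, 1 at an unadjusted p below 0.05, all genes 2618 of 15053). The highest sum was that of control replicate 2, the control lung with the least Cps1 and the most Cpn1. In the Cox10 cross the sums were 140 to 407 and 131 to 420, and 2 of 3 tested genes lay below 0 (median -0.71, none past the threshold in limma or at an unadjusted p below 0.05). The part of liver RNA in the values of Cpn1 and Cps1 was not tested. Pancreas, kidney and thyroid lists summed to at most 22.4, 54.6 and 66.3 normalised reads in any sample. Few of their genes could be tested, with 1 pancreas and 2 thyroid genes in each line. For kidney 1 gene was tested in each of the Tfam and Cox10 lines and none in the Rptor cross. None of the tested genes was called, which says little with so few tested. The heart and thymus list varied most, from 391 to 14189, and held 1 call, higher in the Tfam cross, where 4 of its genes were tested (all genes 2.03%).

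Because the 6 genes were chosen for their falls, their relatives and partners were examined instead, over 7 lists with 96 genes in the tables that were picked for relation to the 6, with earlier results of these data known. In the Rptor cross 17 of 72 tested relatives were higher and 16 lower (23.6% and 22.2%), against 16.6% and 18.2% of all tested genes. In the Tfam cross 6 of 73 were higher and 8 lower (8.22% and 11%), against 2.03% and 2.63%. These counts hold 2 of 33 calls in the Rptor cross (Cpa4 and Hc) and 2 of 14 in the Tfam cross (Cckbr and Sctr) that reached the minimum through 1 group alone. With no minimum set, 33 of 94 and 11 of 93 relatives passed in limma, against 4951 of 19275 and 596 of 19265 over all genes. In the Cox10 cross none of 74 passed in limma, with 18 at an unadjusted p below 0.05, and 0.141% and 0.335% of all tested genes were higher and lower. The median log2 fold change over the relatives was 0.07, 0.02 and 0.04 for Rptor, Tfam and Cox10 in turn. Both directions were thus present among relatives. The count in the Tfam cross fell to 6 without control replicate 1, 7 without deficient replicate 3, 8 without control replicate 2 or deficient replicate 2 and 9 without deficient replicate 1, while the count over all genes fell from 702 of 15053 to 363, 365, 498, 429 and 447 in the same order. The count in the Cox10 cross rose to 5 without deficient replicate 3, where the count over all genes rose from 71 of 14937 to 251.

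Among aspartic proteases, the family of chymosin, 3 of 6 tested genes rose in the Rptor cross and none fell, with 1 of 6 in each direction in the Tfam cross, where 16.6% and 18.2% of all tested genes rose and fell with Rptor and 2.03% and 2.63% with Tfam. Ctsd, the lysosomal cathepsin D, rose from 5962 to 9604 normalised reads in the Rptor cross (log2 fold change 0.68, SE 0.08, limma adjusted p = 0.000632), Bace2, a membrane-bound aspartic protease, from 193 to 331 (0.78, SE 0.13, limma adjusted p = 0.00267) and Bace1 from 2471 to 3049 (0.30, SE 0.07, limma adjusted p = 0.0105). Ctse, the cathepsin E of gastric and other epithelia, differed from Cym in its pattern over lines. Its values were 96.5, 98.0 and 88.0 in Tfam-cross controls and 22.8, 25.8 and 19.6 in Tfam-deficient lungs (-2.01, SE 0.18, limma adjusted p = 0.000122), with overlapping groups in the Rptor cross (means of 70.1 and 58.6) and in the Cox10 cross (48.3 and 46.2). Napsa, the napsin A of alveolar type 2 cells, rose in the same Tfam-deficient lungs from 85.1 to 177 (1.05, SE 0.13, limma adjusted p = 0.000823). This rise did not pass the threshold with all 18 samples in a single fit, where the adjusted p was 0.248. Pgc, which encodes the stomach protease progastricsin, was at 333 and 315 in the Tfam cross and passed in no line. A difference between lines was not tested for any of these genes.

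Among cholecystokinin and gastrin peptides and peptide receptors, 2 of 7 tested genes rose and 2 fell in the Rptor cross, and 1 of 9 rose and 2 fell in the Tfam cross (all genes 16.6% and 18.2%, then 2.03% and 2.63%). The ligand gene Cck was at 0 in all 6 samples of the Rptor cross and at 3.03 normalised reads or less elsewhere, while its receptor gene Cckar stood above 1000 in controls. Cckbr, the second receptor for cholecystokinin and the receptor for gastrin, was at 26.4, 26.3 and 18 in Tfam-cross controls and at 7.94, 5.96 and 5.87 in Tfam-deficient lungs (-1.69, SE 0.31, limma adjusted p = 0.0107). It reached the minimum for a test through the controls alone, and with no minimum set its adjusted p was 0.0121. Without control replicate 1 or control replicate 2 this call was lost, with a highest adjusted p of 0.0650. Cckbr went from 17.0 to 5.33 in the Cox10 cross (-1.50, limma adjusted p = 0.172) and was too low for a test in the Rptor cross, at means of 13.0 and 4.69. Sctr, the secretin receptor gene, fell from 35.2 to 9.30 in the Rptor cross (-1.82, SE 0.27, limma adjusted p = 0.00164) and from 24.2 to 4.62 in the Tfam cross (-2.27, SE 0.39, limma adjusted p = 0.00764). Sctr in the Tfam cross also reached the minimum through the controls alone, and its adjusted p was 0.00932 with no minimum. Its ligand gene Sct moved the other way, from 12 to 41.8 in the Rptor cross (1.69, limma adjusted p = 0.0175) and from 11.8 to 33.9 in the Tfam cross (1.44, limma adjusted p = 0.0259). On leaving out single samples, the Sct calls were lost in 2 and 3 of 6 fits. Tacr1, the receptor for substance P, fell from 45.5 to 20.8 in the Rptor cross (-1.24, limma adjusted p = 0.0440), a call lost in 5 of 6 such fits with adjusted p up to 0.127.

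Among metallocarboxypeptidases, 5 of 12 tested genes rose and 1 fell in the Rptor cross (all genes 16.6% and 18.2%), and 2 of 11 rose in the Tfam cross (all genes 2.03%). Cpn2, the partner subunit that stabilises CPN1 in plasma, was at 4.96 normalised reads or less in every sample and was not tested. Cpm, a membrane-bound carboxypeptidase of the same substrate preference as carboxypeptidase N, fell from 848 to 530 in the Rptor cross (-0.69, SE 0.13, limma adjusted p = 0.00451), and stood at 1160 and 968 in the Tfam cross and 609 and 489 in the Cox10 cross without passing. Cpxm1, an extracellular family member, rose from 1876 to 3851 in the Rptor cross (1.04, SE 0.07, limma adjusted p = 5.94e-05) and from 1684 to 2086 in the Tfam cross (0.31, SE 0.07, limma adjusted p = 0.0232), where the call was lost in 3 of 6 fits that left out a sample, with adjusted p up to 0.104. Cpz rose from 219 to 386 (0.84, limma adjusted p = 0.00621) and Cpa4 from 7.65 to 22.0 (1.42, limma adjusted p = 0.00662) in the Rptor cross. Cpa4 reached the minimum through the deficient lungs alone, and its adjusted p was 0.00834 with no minimum.

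In the list of kinin and anaphylatoxin genes, taken because carboxypeptidase N trims these peptides, 1 of 6 tested rose and 1 fell in the Rptor cross (all genes 16.6% and 18.2%). None passed in limma in the Tfam cross, with 1 at an unadjusted p below 0.05 (all genes 2618 of 15053). Hc, the gene of complement component 5, the source of an anaphylatoxin, fell from 28.6 to 6.97 in the Rptor cross (-1.92, SE 0.38, limma adjusted p = 0.00559), having reached the minimum through the controls alone (adjusted p = 0.00761 with no minimum). It stood at 45.1 and 25.1 in the Tfam cross (-0.92, limma adjusted p = 0.157) and at 27.7 and 11 in the Cox10 cross (-1.29, limma adjusted p = 0.135). C3ar1, the receptor of another anaphylatoxin on myeloid cells, rose from 163 to 326 in the Rptor cross (1.00, SE 0.16, limma adjusted p = 0.00199).

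Among prominins and apical microvillus genes, 3 of 9 tested genes fell in the Rptor cross (all genes 18.2%) and 1 of 9 in the Tfam cross (all genes 2.63%), and no gene of the list passed as higher in limma in either. Pls1, the actin bundler plastin 1 of microvilli, fell from 333 to 114 (-1.55, SE 0.14, limma adjusted p = 0.000201), Espn, the bundler espin, from 206 to 117 (-0.82, SE 0.16, limma adjusted p = 0.00536) and Eps8, an actin-capping protein, from 778 to 487 (-0.67, SE 0.10, limma adjusted p = 0.00158). Cobl, an actin nucleator, fell in the Tfam cross from 1690 to 1317 (-0.35, limma adjusted p = 0.0328), a call lost in 5 of 6 fits that left out a sample, with adjusted p up to 0.129. Prom1, the other prominin gene, was much higher than Prom2 in read number and passed in no line, with log2 fold changes of 0.12, -0.21 and -0.36 for Rptor, Tfam and Cox10 in turn (limma adjusted p = 0.291, 0.262 and 0.0790). It passed under 1 alternative setting in the Cox10 cross (all 18 samples in a single fit, adjusted p = 0.0432) and 1 in the Rptor cross (without deficient replicate 1, adjusted p = 0.0476).

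Among basement membrane genes, all 21 were tested, and 6 rose and 6 fell in the Rptor cross (all genes 16.6% and 18.2%) while 1 rose and 4 fell in the Tfam cross (2.03% and 2.63%). Lamb3, a chain of laminin 332 of epithelial basement membranes, fell from 1462 to 362 in the Rptor cross (-2.03, SE 0.16, limma adjusted p = 8.66e-05) and from 1364 to 767 in the Tfam cross (-0.83, SE 0.09, limma adjusted p = 0.000485). Lama3, another chain of the same laminin, fell from 4007 to 2085 in the Rptor cross (-0.93, SE 0.10, limma adjusted p = 0.000359) and from 3687 to 3061 in the Tfam cross (-0.27, limma adjusted p = 0.0472). The Tfam call of Lama3 was lost in 5 of 6 fits that left out a sample, with adjusted p up to 0.194. Over all 14 alternative settings it was lost in 9, with adjusted p up to 0.400. Npnt, encoding the integrin ligand nephronectin, rose from 5064 to 12053 in the Rptor cross (1.24, SE 0.10, limma adjusted p = 0.000139) and from 5435 to 6758 in the Tfam cross (0.31, limma adjusted p = 0.0352, above 0.05 in each of the 6 fits that left out a sample). Col4a4, a collagen IV chain, fell in the Tfam cross from 733 to 420 (-0.79, SE 0.11, limma adjusted p = 0.00259). Tinagl1, the paralog of Tinag, fell in the Rptor cross from 770 to 568 (-0.44, SE 0.07, limma adjusted p = 0.00291) and stood at -0.09 and -0.14 on the log2 scale in the Tfam and Cox10 lines (limma adjusted p = 0.604 and 0.736). Its deficient Rptor lungs at 550, 560 and 595 stood beside controls at 802, 770 and 739, a far smaller gap than that of Tinag in the same lungs.

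Among urea cycle, glutamine and ammonia genes, 3 of 11 tested genes fell in the Rptor cross (all genes 18.2%). The neighbours of CPS1 in the cycle left almost no reads. Nags, whose product makes the obligate activator of CPS1, was at 8.04 normalised reads or less in every sample, Otc, the next enzyme, at 2.00 or less, and Ass1 was listed at 1.01 or less. Asl, the following enzyme, was well expressed, at 388 and 358 in the Rptor cross, 300 and 306 in the Tfam cross and 361 and 394 in the Cox10 cross, and passed in none (limma adjusted p = 0.443, 0.900 and 0.656). Slc25a13, the aspartate carrier citrin, fell in the Rptor cross from 1212 to 830 (-0.54, SE 0.07, limma adjusted p = 0.00110), as did Cad, which makes carbamoyl phosphate for pyrimidines, from 7027 to 5410 (-0.39, limma adjusted p = 0.0173), and Slc25a15, the ornithine carrier, from 1117 to 939 (-0.25, limma adjusted p = 0.0293). The last 2 calls were each lost in 3 of 6 fits that left out a sample, with adjusted p up to 0.0600 and 0.0926.

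**Figure D3:**
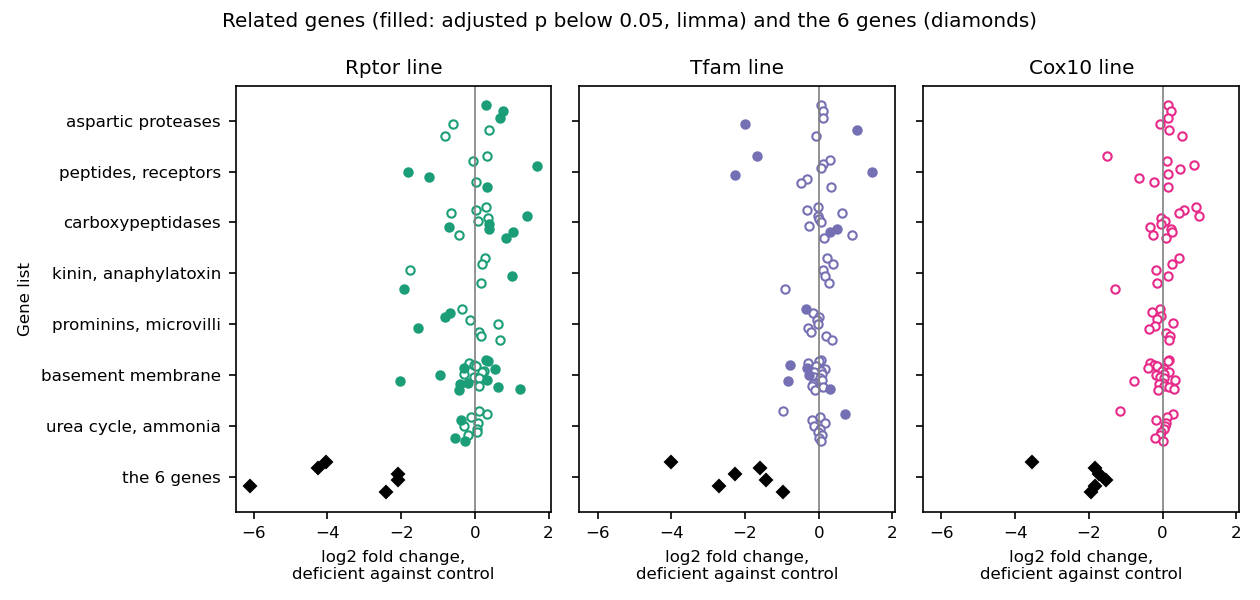
Log2 fold change of every tested relative in the 7 lists (circles, filled where limma's adjusted p was below 0.05) and of the 6 genes (black diamonds) in each line. Relatives scatter on both sides of 0, with 17 higher and 16 lower in the Rptor cross, 6 and 8 in the Tfam cross and none in the Cox10 cross, while the 6 genes lie at -0.97 or below.

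The nearest protein-coding genes on the chromosome were examined as a further set fixed by position, with 2 on each side of each gene and 24 in all. In the Rptor cross 2 of 18 tested neighbours were higher and 3 lower (11.1% and 16.7%), against 16.6% and 18.2% of all tested genes. In the Tfam cross 1 of 19 was lower (all genes 2.63%), and in the Cox10 cross none of 18 passed in limma (all genes 0.141% higher and 0.335% lower), with 2 at an unadjusted p below 0.05 (all genes 1945 of 14937). Fam83b, an epithelial growth signalling gene 385 kb from Tinag, fell from 271 to 91.4 in the Rptor cross (-1.58, SE 0.18, limma adjusted p = 0.000550) and from 310 to 188 in the Tfam cross (-0.71, SE 0.11, limma adjusted p = 0.00315). It was at 224, 218 and 186 in Cox10-cross controls and 120, 172 and 143 in Cox10-deficient lungs (-0.54, limma adjusted p = 0.253). Kcna2, a potassium channel gene 96.3 kb from Cym, rose in the Rptor cross from 149 to 287 (0.96, SE 0.16, limma adjusted p = 0.00232), and Erbb4, a receptor tyrosine kinase gene 801 kb from Cps1, rose from 34.9 to 98.4 (1.47, SE 0.24, limma adjusted p = 0.00242). Stim2 and Mrps5, near Cckar and Prom2, fell by smaller amounts in the Rptor cross (-0.31 and -0.26, limma adjusted p = 0.0170 and 0.0103), and the Stim2 call was lost without control replicate 2 or control replicate 3, with adjusted p up to 0.0620. Mrps5 was named after its value was seen. Kcnip3, 4.86 kb from Prom2, had log2 fold changes of 0.08, -0.0074 and 0.0032, and Dnmbp, 16.1 kb from Cpn1, had 0.11, -0.04 and 0.06, none of them past the threshold. The closest neighbours of Cym, Kcna10, A630076J17Rik and Prok1, were too low to test.

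**Figure D4:**
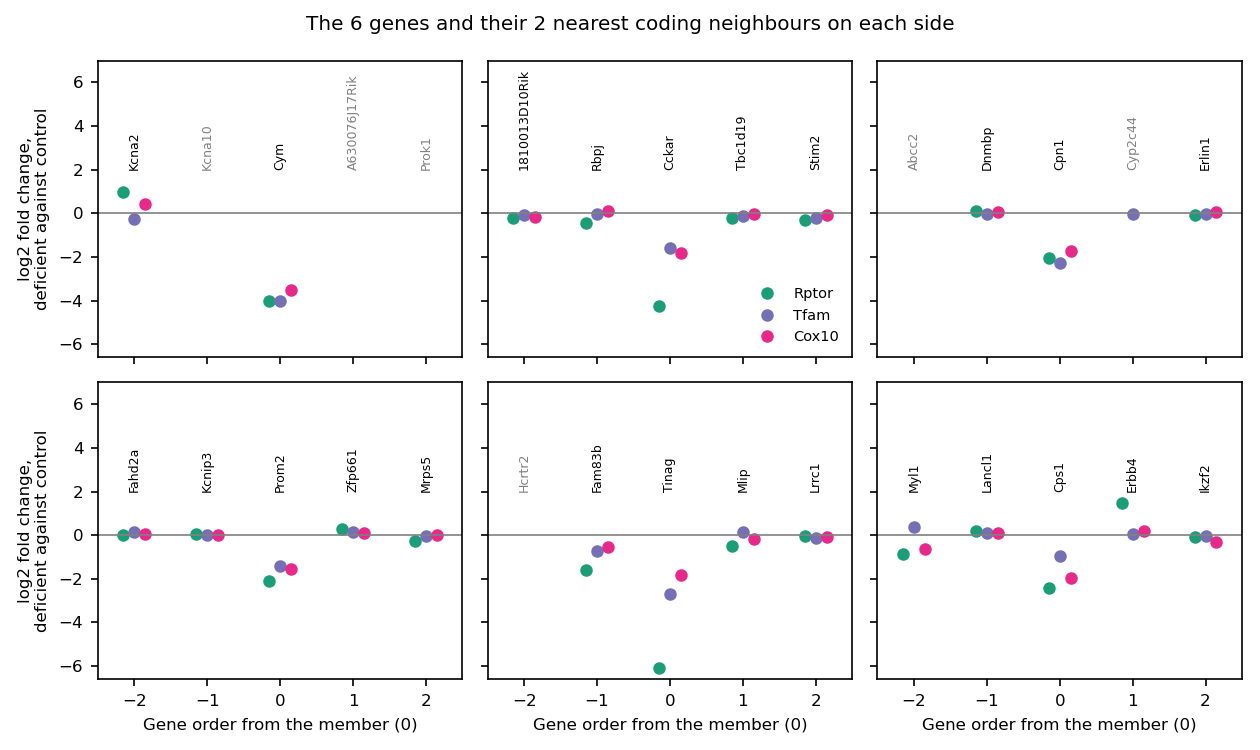
Log2 fold change in each line (colours) of the 6 genes (position 0) and of the nearest coding genes on each side in chromosome order, with names in grey for neighbours that were too low to test in the Rptor cross. Most neighbours lie near 0 where the gene between them lies between -0.97 and -6.10, and Fam83b beside Tinag and Erbb4 beside Cps1 are the widest apart from 0.

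The genes whose pattern was most like that of the 6 were found from log2 levels centred on the controls of each line, over 18 samples. All of these correlations hold the difference between deficient and control lungs and the shared libraries, and they are a description. Edn3, encoding the signalling peptide endothelin 3, and Col11a2, a collagen chain gene, had the highest r with the mean of the 6 genes, both at 0.988, followed by the splicing regulator gene Esrp2 (0.983), Eif2b2, a translation initiation factor subunit (0.978), Tmem54 (0.975), the chloride channel gene Ano1 (0.974), Crh (0.973) and the keratin gene Krt7 (0.973). Edn3 stood at 864 and 322 normalised reads in control and deficient lungs of the Rptor cross, 779 and 412 in the Tfam cross and 619 and 329.9 in the Cox10 cross. A high r did not need a large difference, since Eif2b2 had log2 fold changes of only -0.30, -0.20 and -0.17. Taken singly, Cym was most like Nptx1 (0.984) and Rasl11b (0.980), Cckar like Irx5 (0.985) and Tmem54 (0.984), Cpn1 like Sh3rf3 (0.960) and Rasl11b (0.957), Prom2 like Edn3 (0.969) and Bcl11b (0.968), Tinag like Aldh1a7 (0.977) and Fam129b (0.976), and Cps1 like 9430021M05Rik (0.958) and Nap1l5 (0.953). Of the 6, Prom2 was closest to the mean of the other 5 (0.969) and Cps1 the farthest (0.861).

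A different question is whether the 6 genes varied together among lungs of the same group, where the difference that chose them plays no part. Deviations from the group mean of log2 levels were correlated over all 18 samples for 15 pairs of genes and for each gene with the epithelial reference, which makes 21 relations, each with a two-sided exact permutation test within groups. Pairs had a median r of -0.11, ranged from -0.75 to 0.65, and 7 of 15 were positive. A single relation passed after adjustment. Cpn1 and Cps1 deviated in opposite directions, with Pearson r = -0.75 (exact permutation p = 0.00146, adjusted p = 0.0306) and Spearman rho = -0.72 (exact permutation p = 0.00199, adjusted p = 0.0419) over 18 samples, and r was -0.69 without the 2 samples farthest from the median of Cpn1. Rptor-deficient replicate 3 was highest of its group for Cpn1 (49.4) and lowest for Cps1 (30.6), and Tfam-deficient replicate 1 had 47.6 and 27.8 in the same way. With the replicate number removed as a block r was -0.77 (exact permutation p = 0.00926, adjusted p = 0.194), and in the 9 controls alone it was -0.72 (exact permutation p = 0.0185, adjusted p = 0.389, r = -0.43 without the 2 farthest samples). Neither passed after adjustment, but the smallest possible exact permutation p in these designs is 0.00463. That is too high for a single relation among 21 to pass. Cym and Prom2 had r = 0.63 and rho = 0.57 (exact permutation p = 0.0157 and 0.0349, adjusted p = 0.165 and 0.244, r = 0.63 without the 2 farthest samples). Cym and the epithelial reference had r = 0.64 and rho = 0.64 (exact permutation p = 0.0411 and 0.0182, adjusted p = 0.288 and 0.192, r = 0.61 without the 2 farthest samples), and no gene passed with the reference.

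**Figure D5:**
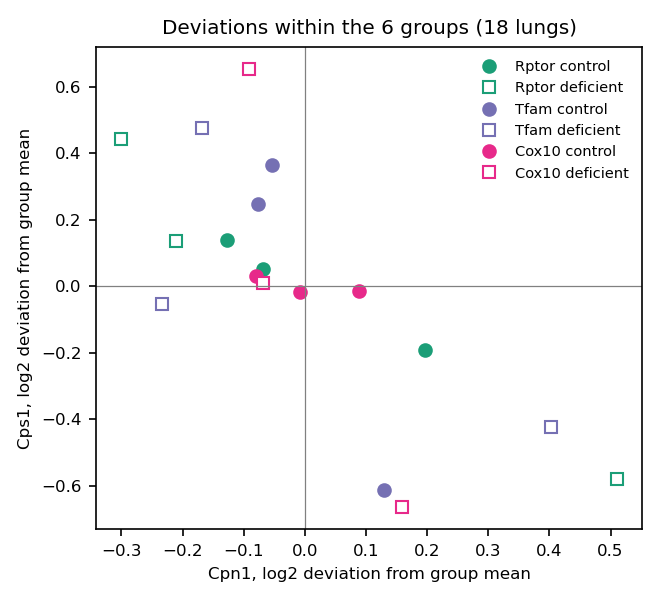
Deviation of Cpn1 (horizontal axis) and Cps1 (vertical axis) from the mean of their group, in log2(value + 1), for 18 samples of 6 groups, with controls filled, deficient lungs open and lines by colour. Points run from upper left to lower right, with r = -0.75.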

How the data were processed

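RNA of whole 14.5 dpc lungs had been extracted with TRIzol and an RNeasy kit and sequenced on a BGISEQ-500. The submitters' processing notes name Trim Galore, HISAT2, featureCounts, DESeq2 and the build mm10, without versions. The authors deposited a table per line whose signal values are reads counted per gene after division by the size factor of each library. Each table also holds the authors' own fold changes and p-values, which were not used. Values were analysed as log2(value + 1), a scale that understates changes of genes with low values. Genes reaching a value of 10 in 3 or more of the 6 samples of a cross were fitted in limma 3.58.1 (R 4.3.3; lmFit, eBayes with trend, genotype as the only term) with Benjamini-Hochberg adjustment over all genes tested (14940, 15053 and 14937 for Rptor, Tfam and Cox10) and a threshold of 0.05. The fits were tested on simulated data with known changes. Count tests were not run.

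Groups and replicate numbers came from the sample titles. Samples of the Rptor cross with the same number deviated together (correlations of 0.221, 0.330 and 0.259 for the 3 pairs, all over 0.1). They could thus be read as pairs there, from the data and not from the labels. This pairing was used only in the alternatives with the replicate number as a block. The main counts and adjusted p-values come from limma fits that ignored it. The 6 genes, the 7 related lists, the marker lists and the 13 motifs were chosen with earlier results of these data known. Named besides the 6 genes were up to 4 called genes per related list with the largest fold changes, a fixed set of nearest relatives and partners, the 8 genes most like the mean of the 6, the 2 most like each, and the 5 genes with the largest falls outside the choice. Marker genes were named after their values were seen. Gene positions and exon lengths were taken from GENCODE M21 and promoter sequences from RefSeq (GRCm38.p6). Alternatives were other scalings, pseudocounts and filters, a replicate block, a fit of all 18 samples, stricter thresholds, other epithelial references and leaving out each sample.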

Additional observations from a re-analysis of the deposited data

How the results depend on the processing

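Every value of the 6 genes kept its sign in all settings, per lung and relative to the reference. With a pseudocount of 10 the median log2 difference was -3.05, -1.81 and -1.68 for Rptor, Tfam and Cox10 in turn, and as a mean of the 6 genes it was -3.50, -2.17 and -2.07. Leaving out a sample gave -3.38 to -3.02, -2.07 to -1.88 and -1.88 to -1.76. Relative to the reference, a pseudocount of 10 gave -1.88, -1.54 and -1.28, Epcam alone -2.45 (Rptor) and -1.90 (Tfam), Cdh1 alone -1.34 and -1.39, and Nkx2-1 alone -2.37 (Rptor), and leaving out a sample gave -2.17 to -1.97, -1.84 to -1.55 and -1.55 to -1.26.

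The count of related genes past the threshold (33, 14 and 0) was 10 (Rptor) and 5 (Tfam) among genes with an absolute log2 fold change of 1 or more, 6 in the Tfam cross at an adjusted p below 0.01, and 6 and 4 in the Tfam and Cox10 lines with all 18 samples in a single fit. Over all genes the same settings gave 788 of 14940 and 122 of 15053, 315 of 15053, and 399 and 327 of 14550. Leaving out a sample gave 26 to 37, 6 to 13 and 0 to 5, with 5 in the Cox10 cross without deficient replicate 3. Neighbours past the threshold (5, 1 and 0) were 3 in the Rptor cross at an adjusted p below 0.01, and 2 and 0 in the Rptor and Tfam lines with an absolute log2 fold change of 1 or more, and leaving out a sample gave 4 to 6, 1 and 0. The causes were not tested, beyond the construction of the stricter thresholds.

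With the replicate block the related genes numbered 37, 11 and 0 and the neighbours 7, 1 and 0, and no call of the Rptor cross changed among the named relatives and neighbours fitted this way, which left out Bace1, Mrps5 and the marker genes. Over all genes of the Rptor cross the block gave 5768 calls of 14940, against 5202 without it. Same-numbered samples had mean correlations of -0.123 in the Tfam cross and 0.233 in the Cox10 cross and were not taken as pairs there, and 2 and 3 of 6 samples were most like their own number. Pairs deviating together (1) numbered 0 with the replicate block and 0 in the 9 controls alone. The smallest possible exact permutation p in these designs is 0.00463, too high for a single relation among 21 to pass after adjustment. These counts of 0 are therefore not read. The values of each sample were whole multiples of its smallest value above 0, which lay between 0.978 and 1.02 over the samples. The planned edgeR and DESeq2 fits on recovered reads were not run, and whether they would change any call was not tested. Genes below about 10 normalised reads, such as Cck, Cpn2, Otc and Nags, are too shallow at this depth for any statement on change.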
